A study of Glycyrrhiza uralensis with 15 samples.

Results

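Drought alone was compared with normal watering in whole licorice seedlings (Glycyrrhiza uralensis), a perennial legume of dry land whose roots are the source of glycyrrhizin. The comparison rested on 6 of the 15 nanopore cDNA libraries of the series, 3 from watered plants (CK) and 3 from droughted plants (D), all from plants aged 45 days. Genes were included if they reached 1 CPM (reads per 1000000 reads assigned to genes in a library) in at least 3 of the 15 libraries, which kept 22654 of 30197 genes. Plants grew from 60 seeds per pot in 1900 g of sterilized desert sand without nutrients. Water was held at 65 to 75% of saturation in CK and at 35 to 45% in D. The other 9 libraries came from droughted plants given the bacterium G5, silicon or both. They entered the test as a source of the spread between replicates and are not described for their own sake. The labels give no cultivar, and they do not tell whether replicate libraries were grown in different pots. The p-values therefore refer to the spread among these libraries, part of which may be technical.

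A plant short of water closes its stomata, makes the hormone abscisic acid, stores osmolytes and protective proteins, and slows its growth. In a whole seedling, root, stem and leaf are ground together, and a lower level of a transcript can reflect fewer cells that make it as well as less RNA per cell, which cannot be told apart in these bulk libraries. The files pair no gene ID with a gene name. Genes are therefore given as ranks and values, with only 4 IDs, no roles and no sequences, and marker genes of drought or of organs were not analysed here.

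The CK libraries held 3089958, 3514137 and 3444161 reads assigned to genes and the D libraries 3488568, 3039422 and 3291602, so 1 read was worth 0.285 to 0.329 CPM. From 24687 to 25237 genes had a read in CK and from 23722 to 24841 in D. The mean was 24910 ± 288 in CK and 24330 ± 566 in D (SD, n = 3; exact permutation test, two-sided p = 0.3, where 0.1 is the smallest value that 3 libraries against 3 allow). With all libraries thinned to the depth of the smallest, the means were 24710 ± 259 and 24180 ± 487 genes (SD, n = 3; exact two-sided p = 0.2).

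Pairs of libraries from the same group were on average only slightly closer than pairs from different groups. The mean Spearman correlation of log2(CPM + 1) across genes was 0.926 over the 6 pairs within CK or D and 0.921 over the 9 pairs of a CK with a D library (exact permutation test, one-sided p = 0.3). On average 14.4% of genes lay apart by a log2 difference of 1 or more in a pair from the same group, and 15.3% in a pair from different groups.

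D-1 and D-3 formed the closest pair, with a correlation of 0.953 and 8.64% of genes apart. The next closest pair crossed the groups. CK-3 and D-2 had a correlation of 0.942 with 11.3% of genes apart, whereas D-2 reached 0.922 with D-1 and 0.919 with D-3, and CK-3 reached 0.919 with CK-1 and 0.914 with CK-2. CK-3 and D-2 therefore stood apart from their own groups. All libraries were used under their labels, and whether the labels of these 2 libraries were exchanged was not tested, so every difference of D from CK holds for the libraries as labelled. Counts of genes are also given without both, a choice made after the data were seen. No pair of libraries looked like a repeat of the same library, since the lowest chi-square per degree of freedom between their reads was 8.07, for D-1 and D-3.

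**Figure D1:**
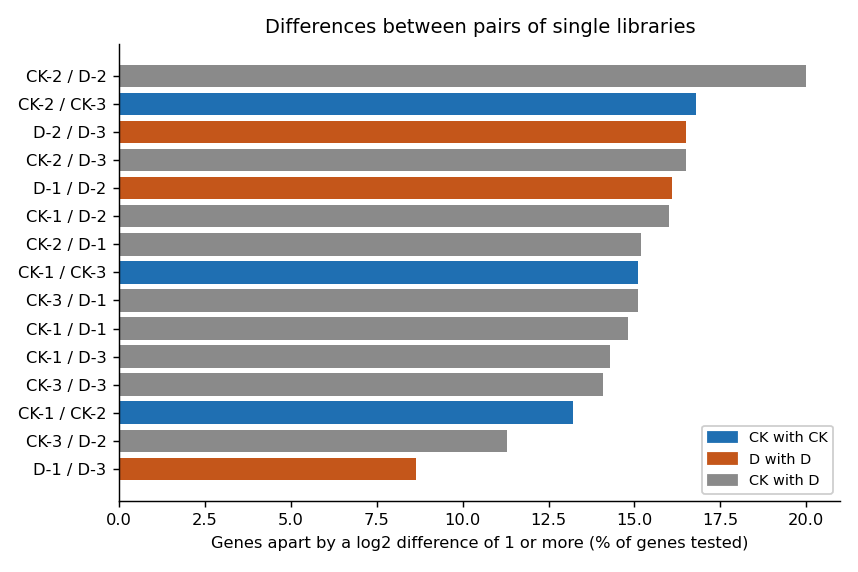
Share of the 22654 genes that lay apart by a log2(CPM + 1) difference of 1 or more, in % of genes tested, for each pair of single libraries among the 3 CK and 3 D libraries. Pairs from the same group and pairs from different groups are mixed along the order, from 8.64% for D-1 with D-3 and 11.3% for CK-3 with D-2 to 20% for CK-2 with D-2.

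On the first principal component of the 6 libraries, which held 31% of the variance, CK-3 (38.25) and D-2 (61.68) lay at one end and CK-1 (-38.96) and CK-2 (-66.72) at the other. D-1 (2.43) and D-3 (3.31) lay between. On the second component, with 25.1% of the variance, D-1 (-54.74) and D-3 (-55.3) were set apart from the 3 CK libraries (24.54 to 28.41) and from D-2 (30.71). The drought label thus matched neither component in all 6 libraries. Without CK-3 and D-2 the mean number of genes with a read was 25024 in CK and 24634 in D.

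Most genes differed little in mean level between droughted and watered seedlings. The log2 difference, D minus CK on the log2(CPM + 1) scale, was smaller than 1 in size for 21501 genes, or 94.9% of those tested. Its median was -0.07, its SD over genes was 0.49, and 5% of genes lay below -0.89 and 5% above 0.59. The sign of the median turned with the scaling, to 0.0018 with median-of-ratios scaling and 0.02 with quantile normalization, and it was -0.1 without CK-3 and D-2. The middle gene had a standard error of 0.32, and the typical SD of a gene between replicates was 0.325 in CK and 0.332 in D on the log2 scale.

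With all 6 libraries, larger differences were more often toward lower levels in drought. The mean was lower in D by a log2 difference of 1 or more for 876 genes (3.87%) and higher for 277 (1.22%). At a difference of 2 or more the counts were 138 lower and 23 higher, and at 3 or more 38 lower and 3 higher. Of the genes that passed a difference of 1, 402 of the lower ones and 184 of the higher ones still had overlapping groups.

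The split depended on how libraries were scaled and on single libraries, D-2 above all. At a difference of 1 or more, 76% of the genes were lower in D with CPM as deposited, 70.2% with median-of-ratios scaling and 64.2% with quantile normalization. At 3 or more the shares were 92.7%, 91.4% and 89.2%. Without D-2 the genes at 1 or more were 944 lower and 718 higher, a share of 56.8%, the lowest among the settings run. Without CK-3 they were 1402 and 423, without CK-1 889 and 430, and without both CK-3 and D-2 1412 and 738, a share of 65.7%.

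The counts of the largest differences moved as well. At 2 or more, 153 genes were lower and 66 higher without D-2 (69.9% lower), 275 and 41 without CK-3, and 280 and 92 without both. At 3 or more, 39 were lower and 8 higher without D-2, 73 and 7 without CK-3, 38 and 9 without CK-1, 46 and 8 without D-3, 33 and 1 without CK-2, and 70 and 14 without both CK-3 and D-2.

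Separation of the libraries was likewise uneven between the directions, and for narrow gaps it depended on the scaling. All 3 D libraries lay below all 3 CK libraries for 1988 genes, 8.78% of those tested, and above them for 710 genes, 3.13%. Labels set at random would separate a gene without ties with a probability of 0.1, both directions together. These counts therefore do not by themselves show a difference between the groups. With median-of-ratios scaling these counts were 1413 and 1159, and with quantile normalization 1311 and 1204, so the share on the lower side went from 73.7% to 54.9% and 52.1%. Many such genes had narrow gaps. A gap of at least 1 on the log2 scale between the nearest libraries was left for 62 genes on the lower side and 5 on the higher side, and for 54 and 5 with median-of-ratios scaling and 51 and 6 with quantile normalization. Without D-2 the wide gaps were 112 and 104, a share of 51.9% on the lower side. Without both CK-3 and D-2 that share was 72.9%, so the split of wide gaps depended on which libraries were used. Leaving out any other single CK or D library gave shares of 84.8% to 92.8%.

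Of the 1988 genes with D below CK, D-2 was the D library nearest to CK for 826, and CK-3 was the CK library nearest to D for 895. Leaving out libraries makes separation easier by construction, since arbitrary labels then separate a larger share of genes. With 1 library left out the counts ran from 2614 without D-1 to 4084 without D-2 on the lower side. On the higher side they ran from 1209 without D-3 to 2347 without D-2. Without both CK-3 and D-2 they were 6308 and 3506, a share of 64.3% on the lower side, with gaps of at least 1 for 487 and 181 genes.

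**Figure D2:**
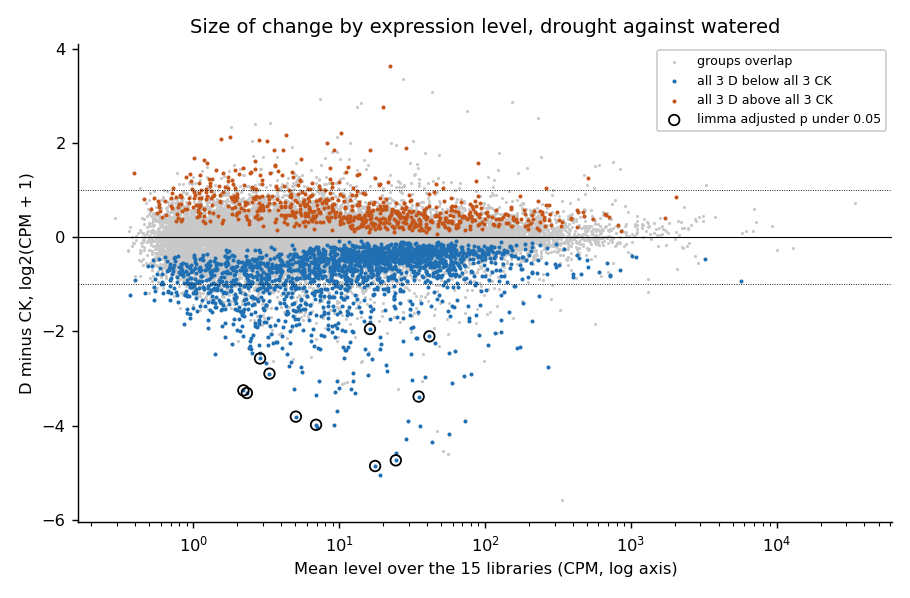
Log2 difference of each of the 22654 genes, D minus CK on the log2(CPM + 1) scale, against its mean level over the 15 libraries in CPM on a log axis; colours mark genes whose CK and D libraries do not overlap, circles the genes past the adjusted threshold, and dotted lines a difference of 1. The 11 circled genes all lie below 0, and the 1988 separated genes below 0 outnumber the 710 above it with CPM as deposited.

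The differences were spread unevenly over expression levels. Among the 5945 genes at 10 to 30 CPM, 10.1% had all D libraries below CK and 3.08% above, and among the 4184 genes at 30 to 100 CPM the shares were 10% and 3.3%. Among the 349 genes at 300 to 1000 CPM they were 4.87% and 5.16%. A difference of 1 or more toward lower levels was most frequent at 1 to 3 CPM, in 241 of 3864 genes (6.24%, against 1.97% toward higher levels), and it was found in 3 of 349 genes at 300 to 1000 CPM, where 8 went the other way. Without CK-3 and D-2 such differences were lower and higher in 10.3% and 5.72% of genes at 1 to 3 CPM, and in 2.29% and 3.72% at 300 to 1000 CPM. Groups of the remaining 4 libraries did not overlap, lower and higher, for 31.4% and 13.6% of genes at 10 to 30 CPM. At 1000 CPM or more, a level with 84 genes, these shares were 17.9% and 45.2%. With all 6 libraries they were 4.76% and 2.38% at that level, 4 genes lower and 2 higher, so the direction there depended on the libraries used.

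**Figure D3:**
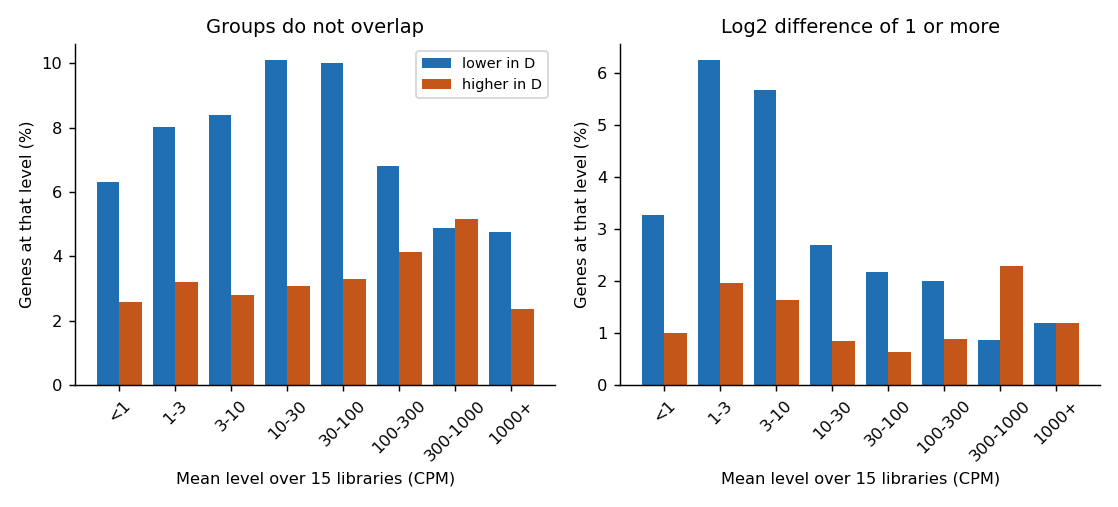
Share of genes, in % of the genes at each mean level over the 15 libraries in CPM, whose 3 D libraries all lay below or above the 3 CK libraries (left) or whose mean differed by a log2 difference of 1 or more (right). Bars for lower levels in D exceed those for higher levels up to 300 CPM, with 10.1% against 3.08% at 10 to 30 CPM, and the shares are 4.87% and 5.16% at 300 to 1000 CPM; both panels use CPM as deposited.

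The median log2 difference was -0.09 at 10 to 30 CPM, -0.0025 at 100 to 300 CPM and 0.17 in the 84 genes at 1000 CPM or more. With median-of-ratios scaling the same medians were -0.01, 0.08 and 0.26, and with quantile normalization 0.01, 0.02 and 0.08. The direction for genes at 10 to 30 CPM thus flipped with quantile normalization, while the most abundant genes had a positive median under each scaling and without CK-3 and D-2 (0.28).

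Of the 100 most abundant genes, 72 had a higher and 28 a lower mean in D (67 and 33 without CK-3 and D-2), 5 had all D libraries below CK, 3 had all above, and 0 were called by limma. The 100 most abundant genes of each library took 24.5%, 22.84% and 26.25% of reads in CK and 29.89%, 25.66% and 25.53% in D. The means were 24.53 ± 1.71% and 27.03 ± 2.48% (SD, n = 3; exact permutation test, two-sided p = 0.3), and the groups overlapped. Without CK-3 and D-2 the means were 23.7% and 27.7%.

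The most abundant gene alone stood at 30800, 18600 and 28700 CPM in CK and at 58100, 30500 and 42400 CPM in D. Its lowest D library lay just under its highest CK library, and its log2 difference was 0.73 (SE 0.7, limma adjusted p = 0.867). The gene next in abundance stood at 15200, 7770 and 17300 CPM in CK and at 9500, 12200 and 11000 CPM in D, with a log2 difference of -0.22 (SE 0.53, limma adjusted p = 0.957). The 95% intervals, -0.77 to 2.23 and -1.37 to 0.92, both held 0.

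Against this spread, 11 genes fell in D by limma's moderated test at an adjusted p under 0.05, which is 0.0486% of the genes tested, and 0 rose. At an unadjusted p under 0.05 limma listed 1374 lower and 432 higher genes, and the smallest adjusted p of a higher gene was 0.145. With median-of-ratios scaling the unadjusted counts were 1014 and 673, and with quantile normalization 964 and 760. edgeR's quasi-likelihood test on reads recovered from the CPM called 5 lower (0.0221%) and 0 higher genes, all 5 among the 11. DESeq2 called 90 lower (0.46% of the 19553 genes to which it gave an adjusted p) and 8 higher genes (0.0409%), and all 11 were among them.

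The 11 calls rested on the spread shared by all 5 groups, and their number moved when single libraries were left out. CK had the highest SD of any group on the log2 scale for the genes ranked 2 and 4 to 8 by p. It was not the highest for those ranked 1, 3 and 9 to 11. For the gene ranked 8 the SD was 1.82 in CK and 0.23 to 0.67 in the other groups. Its SE was 0.67 with all groups in the fit and 0.81 with only CK and D. For the gene ranked 3 these were 0.45 and 0.42. For some called genes the shared spread was thus smaller than that of the watered libraries. With only the CK and D libraries in the fit limma called 0 genes, with 1172 lower and 357 higher at an unadjusted p under 0.05 and a smallest adjusted p of 0.0805. Leaving out CK-1 gave 16 genes called lower, CK-2 6, CK-3 22, D-1 4, D-2 3 and D-3 8. Leaving out CK-3 together with D-2 gave 13. Of the 11 genes, 3 kept their call without D-2, 4 without D-1, 5 without CK-2 and 7 without D-3. Without CK-1 8 kept it, without CK-3 11, and without CK-3 and D-2 7. Such fits have fewer libraries and so less power, and a lost call does not by itself show dependence on the library left out.

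**Figure D4:**
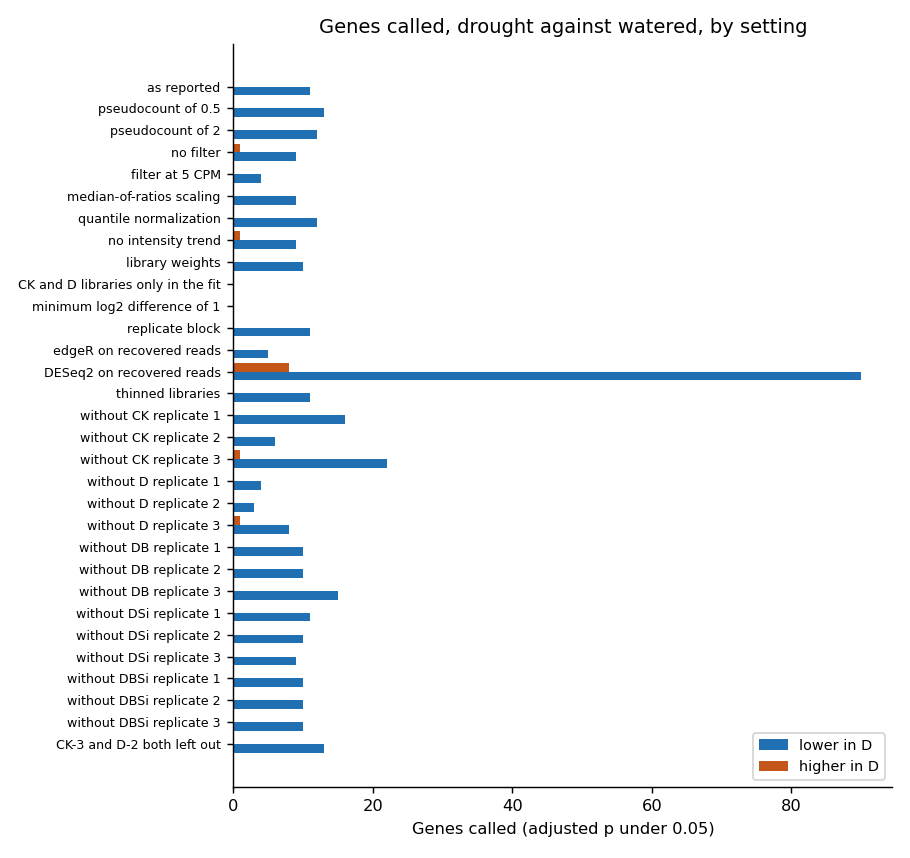
Number of genes called at an adjusted p under 0.05 in each direction, D against CK, for the reported fit and each alternative. The lower calls run from 0 with only CK and D in the fit or with a minimum log2 difference of 1 to 90 in DESeq2, and the higher calls from 0 to 8.

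The 11 genes had wide gaps between the groups, which is a description, since the test chose them on these libraries. All 11 had D libraries below every CK library, with gaps of 1.34 to 3.18 on the log2 scale, and their log2 differences ran from -4.85 to -1.95 with a median of -3.31, against a median of -0.07 over all genes tested with CPM as deposited. Mean levels were 10.6 to 123 CPM in CK and 0 to 10.3 CPM in D. Mean levels in D were under 2 CPM for 8 of the 11 and over 5 CPM for 3. The highest CK library was CK-1 for 5 genes, CK-2 for 4 and CK-3 for 2, so no single watered library carried all of them.

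The gene with the smallest p was Glyur000910s00020573. It stood at 13.3, 9.68 and 9 CPM in the CK libraries and at 0.573, 0 and 0 CPM in the D libraries. Watered libraries held 106 reads of it in all and droughted libraries 2. Its mean was 10.6 ± 2.3 CPM in CK and 0.191 ± 0.33 CPM in D (SD, n = 3), which is 55.7 times as high in CK (95% counting interval 14 to 433), and its log2 difference was -3.31 (SE 0.32, limma adjusted p = 0.00136). Its watered libraries agreed closely with each other, and its call was lost with only CK and D in the fit (limma adjusted p = 0.0805), with a filter at 5 CPM (0.0587), with a minimum log2 difference of 1 (0.0503) and in edgeR (0.0794).

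The most abundant of the 11 in watered plants was Glyur000520s00025576, which had the next smallest p. It stood at 192, 64 and 114 CPM in CK and at 8.03, 7.9 and 14.9 CPM in D. Every droughted library was far under the lowest watered one, although the watered libraries differed from each other severalfold. Means were 123 ± 64 CPM in CK and 10.3 ± 4 CPM in D (SD, n = 3), 12-fold lower in D, and the log2 difference was -3.38 (SE 0.37, limma adjusted p = 0.00285). Its call was lost with only CK and D in the fit (limma adjusted p = 0.132) and with a minimum log2 difference of 1 (0.0585).

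The gene ranked 3 by p stood at 45, 19.1 and 19.2 CPM in CK and at 0.287, 0.658 and 1.22 CPM in D. It was 38.5-fold lower in D, from 272 reads in CK and 7 in D. Like the gene ranked 2, it was called in 28 of 30 alternatives.

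The gene ranked 4 stood at 145, 33.3 and 22.4 CPM in CK and at 0.287, 0.329 and 1.82 CPM in D. CK-1 gave most of its watered reads, and its log2 difference of -4.85 (SE 0.62, limma adjusted p = 0.0089) was the largest among the 11. The gene ranked 5 stood at 5.83, 4.55 and 21.8 CPM in CK and had 0 reads in all 3 D libraries. Set against a floor of 3 reads per library, its CK mean was at least 11.7-fold higher.

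The gene ranked 6 stood at 4.21, 14.8 and 12.8 CPM in CK and at 0.287, 0.329 and 0.608 CPM in D. The gene ranked 7 stood at 11, 16.5 and 6.68 CPM in CK and at 2.01, 0.329 and 0.911 CPM in D. In both, the droughted level came from few reads, 4 and 11 in total. The gene ranked 8 ran from 14.6 CPM in CK-1 over 86.8 in CK-2 to 181 in CK-3, and stood at 2.58, 0.658 and 1.22 CPM in D. Its watered libraries spanned more than 10-fold, and the call was lost without CK-2 or without any single D library. The gene ranked 9 stood at 18.8, 33.6 and 6.68 CPM in CK and at 0, 0 and 0.911 CPM in D, 64.8 times as high in CK (95% counting interval 21.9 to 317).

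The last 2 of the 11 remained clearly expressed in drought. The gene ranked 10 stood at 72.5, 36.7 and 33.7 CPM in CK and at 8.6, 9.54 and 10.9 CPM in D, 4.91-fold lower. The gene ranked 11 stood at 30.7, 42.1 and 26.1 CPM in CK and at 8.6, 5.26 and 9.72 CPM in D, 4.2-fold lower. Each of these was called in 11 of 30 alternatives, the fewest of the 11, and both had an adjusted p of 0.0381 by limma. The gene ranked 12 had an adjusted p of 0.0767, with 26.8 CPM in CK and 1.24 CPM in D.

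**Figure D5:**
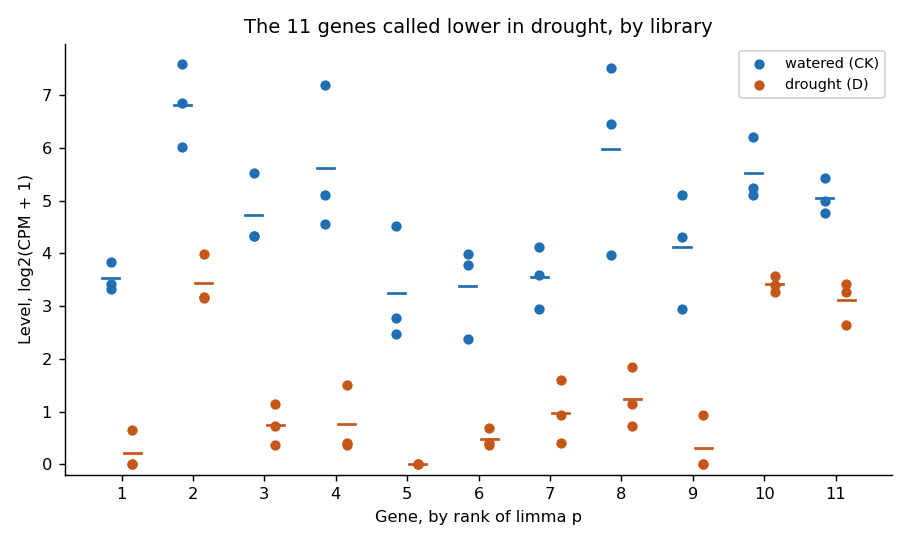
Level of the 11 genes that fell in D, as log2(CPM + 1), in each of the 3 CK and 3 D libraries, by rank of limma p; points are libraries and lines are group means. Every D point lies under every CK point of its gene, 8 genes lie under 2 CPM in the D mean, and the genes ranked 2, 10 and 11 keep D means of 7.86 to 10.3 CPM.

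All 11 genes carry IDs of the reference form, which make up 20342 of the genes tested, and 0 of the 2312 genes with IDs beginning with ONT were called by limma. Since 0.0486% of all genes tested were called, few or no calls would be expected among the ONT genes. Their count therefore does not set the ID classes apart. Differences of 1 or more were split more evenly among the ONT genes, with 105 lower (4.54%) and 78 higher (3.37%), against 771 lower (3.79%) and 199 higher (0.978%) among the others. That difference between ID classes was not tested. In the isoform values that the authors deposited, 4 of the 11 genes have no isoform under their own ID, so the link of their reads to isoforms could not be read from the IDs. For 6 genes over 90% of the CK level lay on an isoform under the gene's own ID, and for the gene ranked 11 by p it was 2.13%.

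Many large mean differences did not pass the threshold. A further 163 genes differed by at least as much as the smallest called difference, 1.95, but were not called, 137 of them lower in D and 26 higher, and 111 of them had groups that did not overlap. The largest difference of all, -5.58, belonged to a gene at 0.971, 5000 and 53.1 CPM in CK and at 1.43, 0.987 and 0 CPM in D. CK-2 alone held nearly all of its reads, the groups overlapped, and limma's adjusted p was 0.426. The gene with the next largest difference stood at 3.56, 182 and 89.7 CPM in CK and at 0.573, 0.329 and 0 CPM in D, with no overlap but an adjusted p by limma of 0.118.

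The widest gap between groups also belonged to a gene that was not called. It stood at 156, 143 and 122 CPM in CK and at 3.73, 12.5 and 12.2 CPM in D, 14.8-fold lower in D, with a gap of 3.19. Its SD on the log2 scale was 0.18 in CK and 0.86 in D but 2.45 in the droughted seedlings given G5, and the shared spread gave a log2 difference of -3.9 with an SE of 0.9 (limma adjusted p = 0.214). With CK and D alone in the fit the SE was 0.39 and the adjusted p 0.0805. Its values were picked out after they were seen.

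On the higher side limma called 0 genes. Among separated genes at 10 CPM or more in D, Glyur001572s00035827 had the smallest p. It stood at 228, 257 and 262 CPM in CK and at 428, 351 and 422 CPM in D. The replicates of each group were close together and the groups did not overlap. The mean was 249 ± 19 CPM in CK and 400 ± 43 CPM in D (SD, n = 3), a ratio of 1.61, and the log2 difference was 0.68 (SE 0.14, 95% interval 0.38 to 0.98, limma adjusted p = 0.159). On recovered reads edgeR gave a log2 difference of 0.77 with an adjusted p of 0.262 and DESeq2 0.77 with 0.00341. DESeq2 was the only 1 of 30 alternatives that called it, and the adjusted p in the others ran from 0.0816 to 1. The 1 isoform deposited under this gene's own ID held 0% of its CK level.

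The largest difference on the higher side belonged to Glyur000202s00015420, at 0, 0 and 24.4 CPM in CK and at 34.7, 42.4 and 30.4 CPM in D. CK-3, the watered library closest to D-2, was the single CK library with reads of it. The SD of this gene between replicates on the log2 scale was 2.69 in CK and 0.24 in D. In the other droughted seedlings it was 0.44 with G5, 2.7 with silicon and 2.8 with both. The log2 difference was 3.63 with a 95% interval from 0.48 to 6.79 (SE 1.5, limma adjusted p = 0.568), and the gap between the groups was 0.31.

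The 5 genes with a gap of at least 1 on the higher side were mostly low in level. The widest gap, 2.03, belonged to a gene at 3.24, 5.12 and 7.26 CPM in CK and at 36.1, 52.6 and 32.8 CPM in D, a ratio of 7.78 (limma adjusted p = 0.244). The other 4 had D means of 2.33 to 9.18 CPM and CK means of 0 to 1.89 CPM, with adjusted p by limma of 0.173 to 0.392. None of these 5 passed the threshold in limma.

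Genes read in one group only were few and mostly at low levels. There were 24 genes (0.106% of those tested) with reads in all 3 CK libraries and 0 in all D libraries. Their median CK level was 1.41 CPM. The reverse held for 9 genes (0.0397%), with a median D level of 0.807 CPM. The inclusion threshold of 1 CPM in at least 3 libraries can be met by a single group. Such genes may thus have been included only through the group with reads, and the counts are a description. Without CK-3 and D-2, where fewer libraries have to hold or lack reads, the counts were 102 and 65. The gene ranked 5 by p is the single called gene among the 24. The highest CK mean among them, 23 CPM, came from a gene at 0.324, 66.9 and 1.74 CPM, so from CK-2 almost alone. The highest D mean among the 9 was 6.52 CPM, from a gene at 16.6, 2.63 and 0.304 CPM, so chiefly from D-1. A count of 0 reads allows up to 3 reads, which is 0.854 to 0.987 CPM in these libraries and covers counting error only.

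The precision of the comparison varied with expression level. For 12219 genes (53.9%) the 95% interval of the log2 difference lay within -1 to 1, and for 2241 genes (9.89%) within -0.5 to 0.5, gene by gene and without adjustment. Without CK-3 and D-2, which leaves fewer libraries, 8649 genes had an interval within -1 to 1. The share within -1 to 1 was 18.3% at 1 to 3 CPM, 39.1% at 3 to 10 CPM, 71.6% at 10 to 30 CPM and 81.4% at 30 to 100 CPM, and it was 61.9% in the 84 genes at 1000 CPM or more. The median SE was 0.44 at 1 to 3 CPM, 0.21 at 30 to 100 CPM and 0.3 at 1000 CPM or more. For the remaining genes the interval reached a log2 difference of 1 in at least 1 direction, so a missed threshold does not show that they did not differ.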

How the data were processed

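Whole-seedling RNA (1 µg) was reverse transcribed and amplified by 14 cycles of PCR before nanopore sequencing, per the labels' protocols. The authors deposited CPM values per gene and per isoform, 1 column per library, per the file headers. Minimap2 was used, per the submitters' processing notes; each of its version, the read counter and the genome build is not given in the sources used here. Near-identical genes may have shared reads. Reads were recovered from the deposited CPM, with 100% of values whole within 0.01. PCR reads carry no molecular identifiers, and intervals and floors reflect counting error alone.

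limma 3.58.1 (R 4.3.3) was fitted to log2(CPM + 1) of all 15 libraries with group as the factor and its trend option on; tests were two-sided, with Benjamini-Hochberg adjustment over 22654 genes and a threshold of 0.05. A log2 difference on this scale understates the change of low genes, and fold values are ratios of mean CPM. edgeR 4.0.16 and DESeq2 1.42.0 on recovered reads, other pseudocounts, filters, scalings and weights, a replicate block and each library left out were alternatives. The tests were tried on simulated counts, with outcomes not reported here, and no result above rests on that trial. Named IDs had groups that did not overlap and a mean of at least 10 CPM in the group that was higher: the smallest p and the highest CK mean among called falls, and, with no called rise, the smallest p and the largest difference. Other genes described by values were chosen after their values were seen. The comparison and its rule were chosen with earlier results of these data known.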

Additional observations from a re-analysis of the deposited data

How the results depend on the processing

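The direction of the 4 named genes was the same in all 30 alternatives. They were chosen for groups that do not overlap, so leaving out libraries could not reverse it. With a pseudocount of 0.5, 468 genes were higher by a log2 difference of 1 or more, and with 2, 568 were lower and 148 higher. With no filter 1 gene was called higher and 18779 of 30197 genes had an interval within -1 to 1. The genes added were low in level, where a difference on this scale understates the change. With a filter at 5 CPM 4 genes were called lower and 576 were lower by 1 or more. Median-of-ratios scaling left 1159 genes with D above CK, and quantile normalization 1311 below and 1204 above. Without an intensity trend 1 gene was called higher. The lower calls were 0 with only CK and D in the fit, 0 with a minimum log2 difference of 1 (unadjusted, 102 lower and 5 higher), 5 in edgeR and 90 in DESeq2, which called 8 higher; the cause was not tested. Without CK-3 and D-2, 1412 genes were lower and 738 higher by 1 or more, and 6308 lay below and 3506 above CK, where fewer libraries separate more easily.

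With 1 library left out, lower calls ran from 3 to 22 and higher calls from 0 to 1 (1 without CK-3 or D-3). Genes lower by 1 or more ran from 829 to 1402 and higher from 255 to 718, genes below CK from 2614 to 4084 and above from 1209 to 2347, and intervals within -1 to 1 from 10117 to 12363. The difference in genes detected ran from -837 to -278, and that in the share of the 100 most abundant genes from 1.06 to 3.36 percentage points, and without both CK-3 and D-2 they were -390 and 4.04.

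A replicate block gave 11 lower and 0 higher calls (unadjusted, 1350 and 391), 10 of them among the 11. Deviations from the group mean correlated at 0.02, -0.19 and -0.07 between CK and D libraries of the same number, so the numbers were not taken to pair samples.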
